A study of Mus musculus with 3 samples.

Results

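The 10 genes described here, H19, Igf2, Dlk1, Meg3, Rian, Mirg, Grb10, Ndn, Peg3 and Plagl1, are imprinted genes linked to growth and to the quiescence of stem cells. They were taken by gene symbol, and each had 1 probe set among the 25206 deposited. Their levels were read in LT-HSCs, the long-term haematopoietic stem cells that sustain blood formation in the marrow, from female C57Bl/6 mice aged 8-10 weeks. The 3 groups were mice given 8 Gy of total body irradiation (TBI) at CDR, mice given 8 Gy as FLASH and non-irradiated mice. CDR is read here as conventional dose rate from general use, and FLASH is delivery at an ultra-high dose rate. The marrow was taken 15 days after TBI, and RNA came from 10000 sorted cells. Each group had 1 array, so no difference below has a replicate check, and precision is limited by there being 3 arrays. Neither the sorting gate nor the number of mice pooled per array is stated in the labels.

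An imprinted gene is expressed mainly from the copy inherited from one particular parent, a choice set by DNA methylation laid down in the germ line. Many imprinted genes act in opposite directions on fetal growth, and several have been studied as brakes on the cell cycle of adult mouse LT-HSCs. H19 and Igf2 are neighbours that share enhancers: Igf2 encodes an insulin-like growth factor and H19 a long non-coding RNA that is the precursor of miR-675. Dlk1, Meg3, Rian and Mirg lie in the Dlk1-Dio3 cluster, whose long non-coding RNAs carry many small nucleolar RNAs (snoRNAs) and microRNAs. The arrays do not separate the parental copies.

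On all 3 arrays most of these genes read within the range of genes taken as unexpressed. Grb10 was read well above that range, Ndn slightly above it on all arrays, and Igf2 slightly above it on the 8Gy CDR and non-irradiated arrays but not on the 8Gy FLASH array. H19, Dlk1, Meg3, Rian, Mirg, Peg3 and Plagl1 were under it on every array. None of Grb10, Ndn and Igf2 differed by as much as 2-fold between any pair of arrays, and no fold can be read for the rest.

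The detection level is the 95th percentile, on each array, of 1364 receptor genes of smell (olfactory, vomeronasal and trace amine receptors). It was 4.16 on the 8Gy CDR array, 4.22 on the 8Gy FLASH array and 4.15 on the non-irradiated array, all on the log2 scale. By this level 3 of the 10 members were read on at least 1 array, a share to be set against 58.3% of all 23185 named genes. The 3 were among the 6 protein-coding members, beside 63.0% of all protein-coding genes with a probe set. None of the 4 long non-coding members was read, against 29.2% of the 2051 long non-coding genes with a probe set. The level decides these counts. At the 90th percentile of the receptor genes 7 members lay above it, beside 66.7% of named genes. At the 99th percentile only Grb10 did, beside 44.0% of named genes (both added after the values were seen). Arrays can also hold exactly the same deposited value for a gene, which was so on all 3 for 39.8% of probe sets. H19, Rian and Peg3 were such ties.

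**Figure D1:**
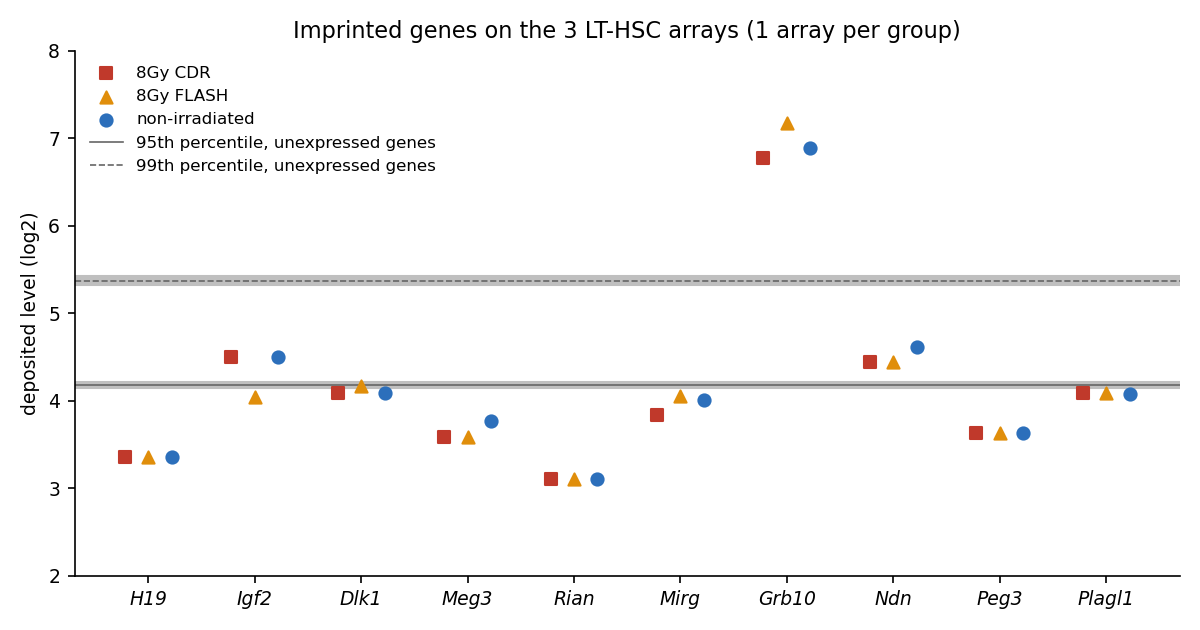
Deposited log2 level (vertical axis) of each imprinted gene on the 8Gy CDR, 8Gy FLASH and non-irradiated arrays, 1 point per array with no error bars since each group had 1 array. The lower grey band spans the detection levels of the arrays and the upper one the 99th percentiles of the same unexpressed genes; only Grb10 lies above both on all arrays.

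The LT-HSC label was checked against 8 measured markers, and all 8 were above the detection level on every array. Against the non-irradiated array, 7 of the 8 were lower on the 8Gy CDR array and 6 on the 8Gy FLASH array, with median log2 differences of -0.33 and -0.44. Their summed linear level was 1431 on the 8Gy CDR array, 1282 on the 8Gy FLASH array and 2648 on the non-irradiated array. Between the irradiated arrays 4 of the 8 were higher on the 8Gy FLASH array than on the 8Gy CDR array and 2 lower, with a median of 0.03. Of 10 stromal marker genes, 4 were above the level on each array, while Lepr, Col1a1, Pdgfra, Adipoq, Kitl and Bglap were under it on all of them. Of 9 granulocyte markers, 7 were above it on the 8Gy CDR array and 8 on each of the others. Of 7 B and antibody-secreting markers, 6 were above it on every array. The granulocyte markers summed to 17809 on the 8Gy CDR array, 16545 on the 8Gy FLASH array and 15347 on the non-irradiated array. These sums hide a split among the 8 detected granulocyte markers. On each irradiated array 4 were higher and 4 lower than on the non-irradiated array, 3 at least 2-fold lower and 0 at least 2-fold higher. The medians were -0.02 for 8Gy CDR and 0.03 for 8Gy FLASH. LT-HSC markers above the level therefore do not show that the sorted cells were pure. In bulk RNA, fewer cells of a type and less RNA per cell cannot be told apart.

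Grb10 encodes an adaptor protein that binds the insulin and IGF1 receptors and dampens their signal. Its log2 level was 6.78 on the 8Gy CDR array, 7.17 on the 8Gy FLASH array and 6.89 on the non-irradiated array. The 8Gy FLASH array was thus the highest and the 8Gy CDR array the lowest, with the non-irradiated array between them. On the log2 scale the 8Gy CDR array differed from the non-irradiated one by -0.11, a size that 44.4% of detected genes matched or passed. The 8Gy FLASH array differed from the non-irradiated one by 0.28, or 1.22-fold, which 24.7% of detected genes matched or passed. Between the irradiated arrays Grb10 was 0.40 higher, or 1.32-fold, on the 8Gy FLASH array than on the 8Gy CDR array, and 5.25% of detected genes differed by at least as much. These comparisons share arrays, so they are not independent.

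Levels of markers of some other cell types also differed between the irradiated arrays. Of 8 endothelial marker genes, all above the detection level, 6 were higher on the 8Gy FLASH array than on the 8Gy CDR array, with a median difference of 0.36. Their summed linear level was 1104 on the 8Gy FLASH array, 975 on the 8Gy CDR array and 1142 on the non-irradiated array. Of 7 dendritic cell marker genes, 6 were above the level and all 6 were higher on the 8Gy FLASH array than on the 8Gy CDR array, with a median of 1.18; Siglech was under the level on all arrays. The dendritic markers summed to 4141 on the 8Gy FLASH array, 1904 on the 8Gy CDR array and 1339 on the non-irradiated array. In the same comparison 4 of 5 erythroid markers were higher and 0 lower, with a median of 0.33. Of 8 detected granulocyte markers, 3 were higher and 5 lower, with a median of -0.05. Of 6 detected B and antibody-secreting markers, 3 were higher and 1 lower, with a median of 0.07. Of 4 detected stromal markers, 2 were higher and 1 lower, with a median of 0.02, and the 1 detected T marker was equal. The part of any of these cells in the Grb10 values was not tested.

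Grb10 is transcribed from more than one start, and a probe set for the whole gene does not separate them. RefSeq gives a promoter window (250 bases before to 50 after a start, build GRCm38.p6) for each of 2 starts. Both are printed because they differ sharply in their number of CG dinucleotides. Neither is known from the sources used here to be the region methylated in imprinting. Each is on the minus strand and is written 5′ to 3′ with CG in capitals.
Grb10 upstream start, chr11:12037371-12037670: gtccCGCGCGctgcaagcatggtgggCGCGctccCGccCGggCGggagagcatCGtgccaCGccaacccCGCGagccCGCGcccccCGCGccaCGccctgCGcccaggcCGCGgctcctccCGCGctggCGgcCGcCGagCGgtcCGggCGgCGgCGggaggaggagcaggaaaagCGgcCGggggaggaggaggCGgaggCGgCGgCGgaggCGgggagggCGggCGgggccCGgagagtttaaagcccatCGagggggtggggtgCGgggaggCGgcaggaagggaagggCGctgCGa
Grb10 downstream start, chr11:12027922-12028221: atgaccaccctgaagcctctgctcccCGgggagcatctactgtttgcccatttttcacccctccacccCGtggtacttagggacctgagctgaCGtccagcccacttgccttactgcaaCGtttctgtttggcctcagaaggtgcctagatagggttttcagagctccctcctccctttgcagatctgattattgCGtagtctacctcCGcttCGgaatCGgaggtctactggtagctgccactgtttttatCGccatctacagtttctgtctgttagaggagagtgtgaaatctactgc
The upstream window holds 45 CG dinucleotides and is 80.0% G and C, and 1.93% of the 32851 promoter windows in the table hold as many CG or more. The downstream window holds 9 and is 52.3% G and C, and 45.8% of windows hold at least 9. Of the 10 members, 9 had windows in the table, 14 in all, with a median of 10.5 CG, against 7 over all windows. Plagl1, which was not read on any array, had 26 CG in its window and Peg3 13, while Rian had 0. Methylation was not measured here.

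Ndn encodes necdin, a MAGE family protein that binds E2F1 and p53 and restrains cell division. It read 4.44 on the 8Gy CDR array, 4.44 on the 8Gy FLASH array and 4.61 on the non-irradiated array. The irradiated arrays held an identical value for Ndn, which 8 other probe sets shared on each of them. Both lay 0.17 under the non-irradiated array on the log2 scale, or 1.12-fold, a size matched or passed by 36.4% of detected genes for the 8Gy CDR array and 37.0% for the 8Gy FLASH array. On every array Ndn was within 0.46 of the detection level and under the 99th percentile of the unexpressed genes.

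Igf2 read 4.50 on the 8Gy CDR array, 4.05 on the 8Gy FLASH array and 4.50 on the non-irradiated array. The 8Gy CDR and non-irradiated values were identical, and the 8Gy FLASH value was the low one and lay under the detection level of its array. By the deposited values Igf2 was therefore at least 1.22-fold lower on the 8Gy FLASH array than on the non-irradiated array. The same bound of 1.22-fold held against the 8Gy CDR array. The deposited values differ by -0.46 on the log2 scale in both of these comparisons. Of detected genes, 13.3% matched or passed that size against the non-irradiated array and 4.03% against the 8Gy CDR array. Since the 8Gy FLASH side of both is under the level, only the bound of 1.22-fold stands.

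**Figure D2:**
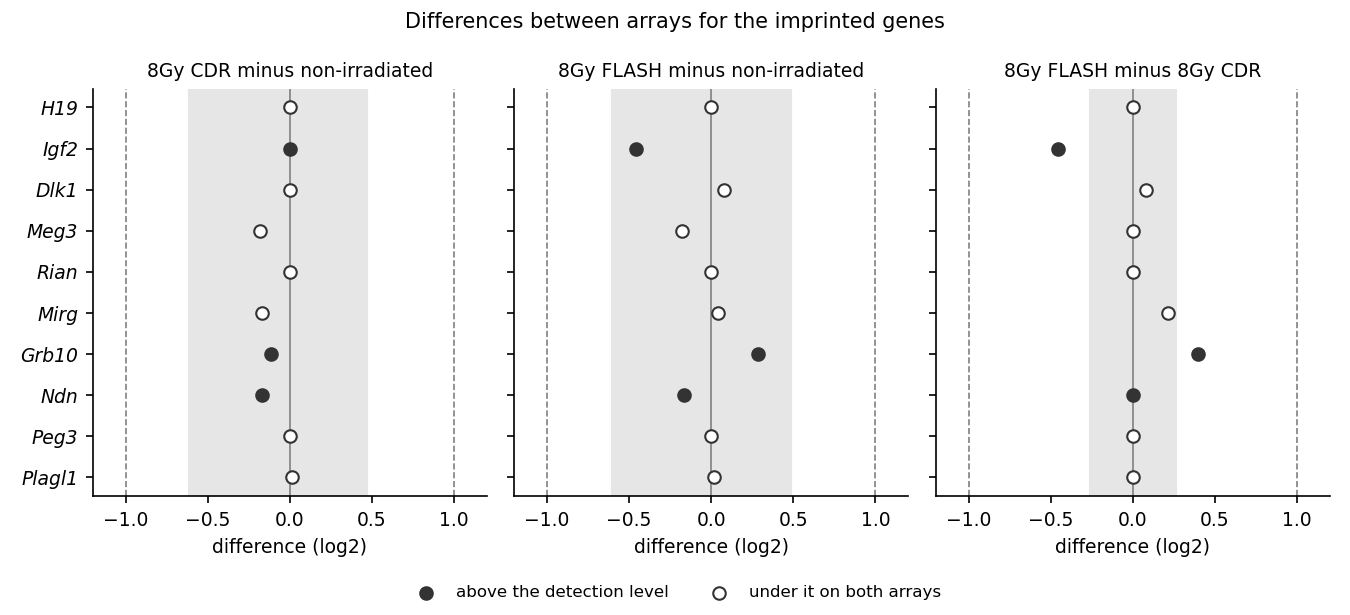
Difference in deposited log2 level (horizontal axis) for each imprinted gene in the 3 comparisons, with filled points for genes above the detection level on the brighter array and open points for genes under it. Grey bands hold the central part of all detected genes (5th to 95th percentile) and dashed lines mark 2-fold. Between the irradiated arrays Grb10, at 0.40, and Igf2, at -0.46, lie outside the band. Both lie inside it in the other comparisons. Igf2 is drawn at its deposited difference, with its 8Gy FLASH value under the detection level.

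H19, the non-coding partner of Igf2, held the value 3.36 on all 3 arrays. That exact value was shared by 274 other probe sets on the 8Gy CDR array, 273 on the 8Gy FLASH array and 278 on the non-irradiated array. Peg3, which encodes a large zinc finger protein, held 3.63 on all arrays and shared it with 295, 280 and 271 other probe sets on the 8Gy CDR, 8Gy FLASH and non-irradiated arrays. These values of H19 and Peg3 were under the detection level and carry no fold. Ties also occur above it: of named genes above the level on at least 1 array, 27.2% held the same value on all 3.

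Plagl1 encodes the zinc finger factor Zac1, which can arrest the cell cycle and acts on other imprinted genes. It read 4.09 on the 8Gy CDR array, 4.09 on the 8Gy FLASH array and 4.07 on the non-irradiated array, under the detection level by 0.07, 0.13 and 0.08. Dlk1, a membrane protein with EGF-like repeats, read 4.09 on the 8Gy CDR array, 4.17 on the 8Gy FLASH array and 4.09 on the non-irradiated array. It was under the level by 0.07 on the 8Gy CDR array, 0.05 on the 8Gy FLASH array and 0.06 on the non-irradiated array. These were the closest members outside the level, and Igf2 and Ndn the closest inside it.

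The maternally expressed RNAs of the Dlk1 cluster were likewise under the level. Meg3 read 3.58 on the 8Gy CDR array, 3.58 on the 8Gy FLASH array and 3.76 on the non-irradiated array. Rian, the host of snoRNAs, held 3.10 on all 3 arrays, a value shared by 336, 323 and 318 other probe sets on the 8Gy CDR, 8Gy FLASH and non-irradiated arrays. Mirg, the host of microRNAs, read 3.84 on the 8Gy CDR array, 4.05 on the 8Gy FLASH array and 4.01 on the non-irradiated array. No fold is given for these genes, since both sides of each comparison were under the level.

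No detected member was at least 2-fold higher or lower in any of the 3 comparisons, so the count was 0 of 3 in each direction. Between the 8Gy CDR and non-irradiated arrays, 0.766% of 13448 detected genes were higher by 2-fold or more and 2.36% were lower by as much. Between the 8Gy FLASH and non-irradiated arrays, 1.17% of 13288 were higher and 1.75% lower by that fold. Between the 8Gy FLASH and 8Gy CDR arrays, 0.85% of 13184 were higher and 0.144% lower. Against shares this small, a count of 0 among 3 genes says nothing particular about the members. The median log2 difference of the 3 detected members was -0.11 for 8Gy CDR minus non-irradiated, -0.17 for 8Gy FLASH minus non-irradiated and 0.00 for 8Gy FLASH minus 8Gy CDR, beside a median of 0.00 over all detected genes each time.

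The rest of the Dlk1-Dio3 cluster was read for the small RNAs that its long non-coding RNAs carry. RefSeq places 66 probe sets from Dlk1 to Dio3, and 8 of these were above the detection level, the same 8 on every array. All 8 were microRNA genes, out of 51 in the cluster, or 15.7%, against 25.1% of 478 microRNA genes elsewhere that were above the level on at least 1 array. None of the 6 snoRNA genes of the cluster was read, against 85.0% of the 100 snoRNA genes elsewhere. The protein-coding genes Rtl1 and Dio3 were also under the level, with Dio3 at 3.25 on all arrays. None of the 8 microRNA genes differed by 2-fold; the largest difference was in Mir665, at 5.77 on the 8Gy CDR array, 5.45 on the 8Gy FLASH array and 5.81 on the non-irradiated array.

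**Figure D3:**
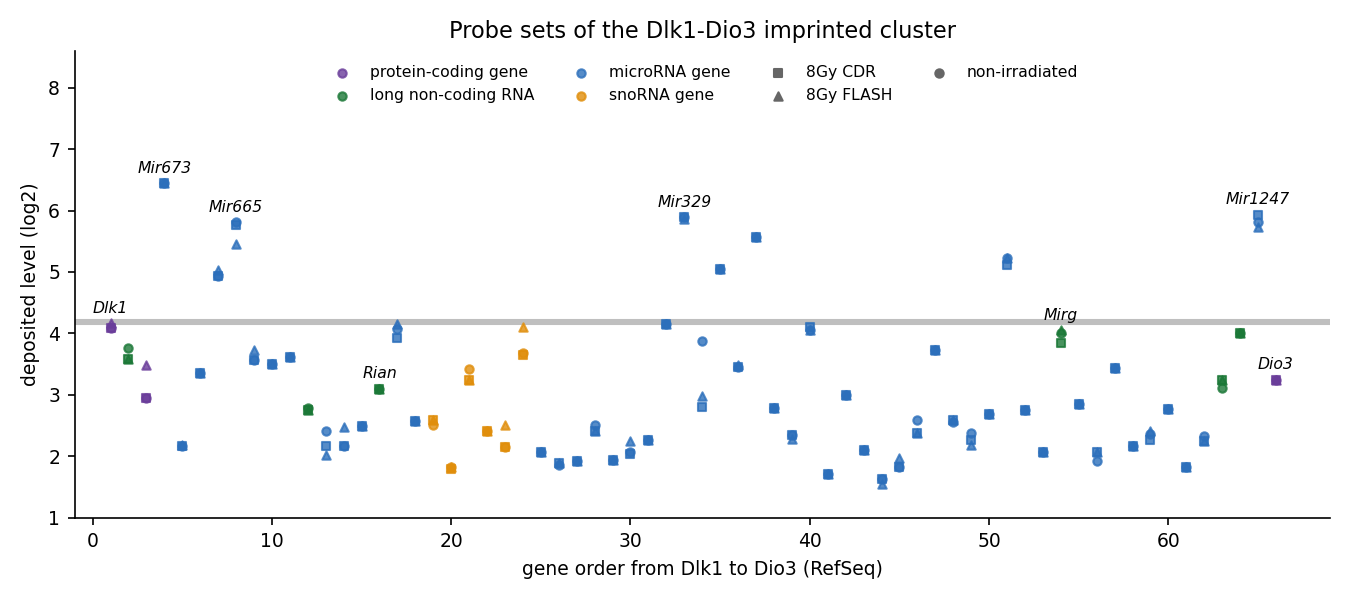
Deposited log2 level (vertical axis) of the 66 probe sets of the Dlk1-Dio3 cluster in gene order (horizontal axis), with marker shape for the 8Gy CDR, 8Gy FLASH and non-irradiated arrays and colour for the kind of gene. The grey band is the detection level, and the 8 genes above it are all microRNA genes.

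These microRNA genes matter to the reading of the cluster because they are the only part of it above the level. The mature sequences below are from RefSeq (GRCm38.p6) for 5 of these genes, for miR-483, which lies within Igf2, and for miR-494, whose gene is an example of those under the level. The seed (bases 2 to 8), which pairs with targets, is in capitals.
mmu-miR-673-5p: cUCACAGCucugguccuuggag
mmu-miR-329-3p: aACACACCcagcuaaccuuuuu
mmu-miR-665-3p: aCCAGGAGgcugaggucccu
mmu-miR-1247-5p: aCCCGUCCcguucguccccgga
mmu-miR-134-5p: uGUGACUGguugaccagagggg
mmu-miR-483-3p: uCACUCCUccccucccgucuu
mmu-miR-494-3p: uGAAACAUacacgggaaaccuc
No pair of these 7 shares a seed. The array labels total RNA, so a probe set for a microRNA gene need not report the mature form. Mir673 held 6.45 on all 3 arrays. Mir494 read 2.81 on the 8Gy CDR array, 2.98 on the 8Gy FLASH array and 3.88 on the non-irradiated array, all under the level. Mir483 read 6.83 on the 8Gy CDR array, 6.98 on the 8Gy FLASH array and 7.10 on the non-irradiated array, above the level on each.

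Level and base composition went together for these short genes. Over 453 microRNA genes with a hairpin in the table, the mean deposited level and the share of G and C in the hairpin had a Pearson's r of 0.51 across genes, which share the same 3 arrays. Of genes with under 45% G and C, 9.86% were above the detection level on at least 1 array, against 49.6% of those with 55% or more. In the cluster the same shares were 5.0% of 20 and 33.3% of 12. The hairpin of Mir673 is 61.5% G and C, that of Mir1247 74.4%, that of Mir134 60.6% and that of Mir483 58.9%. Mir329, at 42.3%, was the one gene under 45% in the cluster that was above the level. The part of base composition in these levels was not tested.

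**Figure D4:**
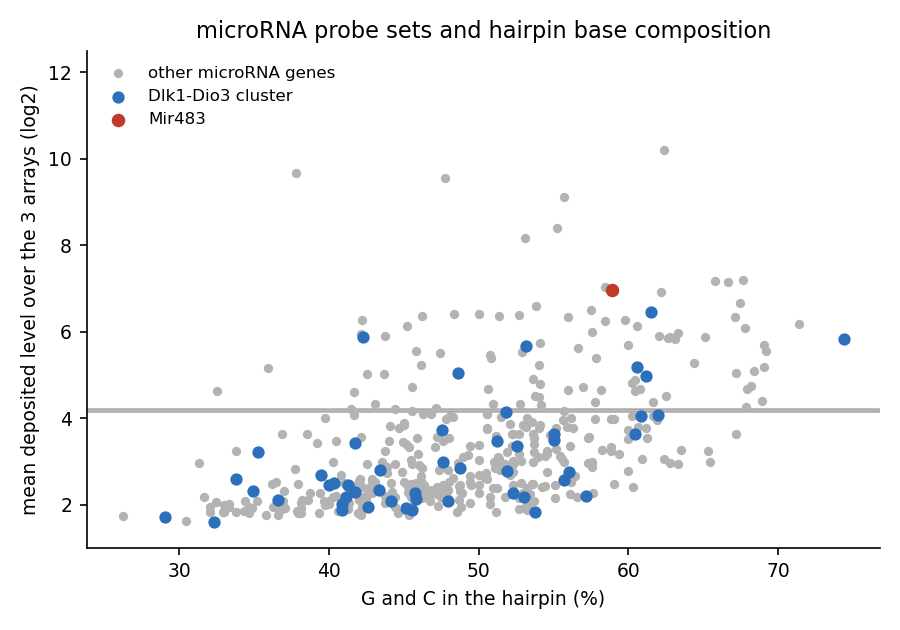
Mean deposited log2 level over the 3 arrays (vertical axis) against the share of G and C in the hairpin (horizontal axis) for 453 microRNA genes, with those of the Dlk1-Dio3 cluster in blue, Mir483 in red and the detection level as a grey band. The share of genes above the band is larger at the G and C rich end, in the cluster and over all genes.

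Other imprinted genes and their close neighbours were counted from a list of 66 genes, of which 58 had a probe set. Between the 8Gy CDR and non-irradiated arrays, 3 of 36 detected genes were lower by 2-fold or more and 0 higher, and between the 8Gy FLASH and non-irradiated arrays 1 of 35 was lower and 0 higher by that fold. Over all detected genes 2.36% were that much lower in the first comparison and 1.75% in the second. The count of 1 in 35 is near its background, and 3 of 36 is too small a count to be read as an excess. Of those 3, Slc22a18 was only just past 2-fold, at -1.01 on the log2 scale, and is a neighbour of Phlda2. Alternative scalings were run for the members only. Between the 8Gy FLASH and 8Gy CDR arrays 1 of 35, Phlda2, was at least 2-fold higher in deposited values, against 0.85% of all detected genes, and 0 were once the dim 8Gy CDR value is set to its level. The median was 0.00 each time, as over all detected genes. In the comparisons with the non-irradiated array the LT-HSC markers were lower as given above. All 5 measured erythroid markers were higher on both irradiated arrays, with medians of 0.98 for 8Gy CDR and 1.44 for 8Gy FLASH and summed linear levels of 782 on the 8Gy CDR array, 976 on the 8Gy FLASH array and 367 on the non-irradiated array. The part of a changed mix of cells in the values of the imprinted genes was not tested. Phlda2, an imprinted regulator of placental growth, was the lowest on the 8Gy CDR array, at 3.80 and under the level, against 4.82 on the 8Gy FLASH array and 5.59 on the non-irradiated array. It was thus at least 2.69-fold lower on the 8Gy CDR array than on the non-irradiated array, and 1.70-fold lower on the 8Gy FLASH array than on the non-irradiated array. Slc22a18, its neighbour in the Kcnq1 cluster, read 5.91 on the 8Gy CDR array, 6.21 on the 8Gy FLASH array and 6.91 on the non-irradiated array.

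Peg13, a paternally expressed non-coding RNA, was lower on both irradiated arrays, at 6.21 on the 8Gy CDR array and 6.06 on the 8Gy FLASH array, against 7.40 on the non-irradiated array. Its differences were -1.19 and -1.34 on the log2 scale for 8Gy CDR and 8Gy FLASH. Sgce, which encodes epsilon-sarcoglycan, read 4.37 on both irradiated arrays and 5.27 on the non-irradiated array. Cdkn1c encodes p57, the imprinted CDK inhibitor that keeps LT-HSCs quiescent in mice. It read 5.0 on the 8Gy CDR array, 5.02 on the 8Gy FLASH array and 5.33 on the non-irradiated array, differences of -0.33 and -0.31 that stayed within 2-fold. Among genes beside the members, neither of the 2 listed for Grb10 and none of the 3 measured for Peg3 were above the level in any comparison. Snrpn, near Ndn, read 5.06 on the 8Gy CDR array, 4.84 on the 8Gy FLASH array and 5.32 on the non-irradiated array.

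**Figure D5:**
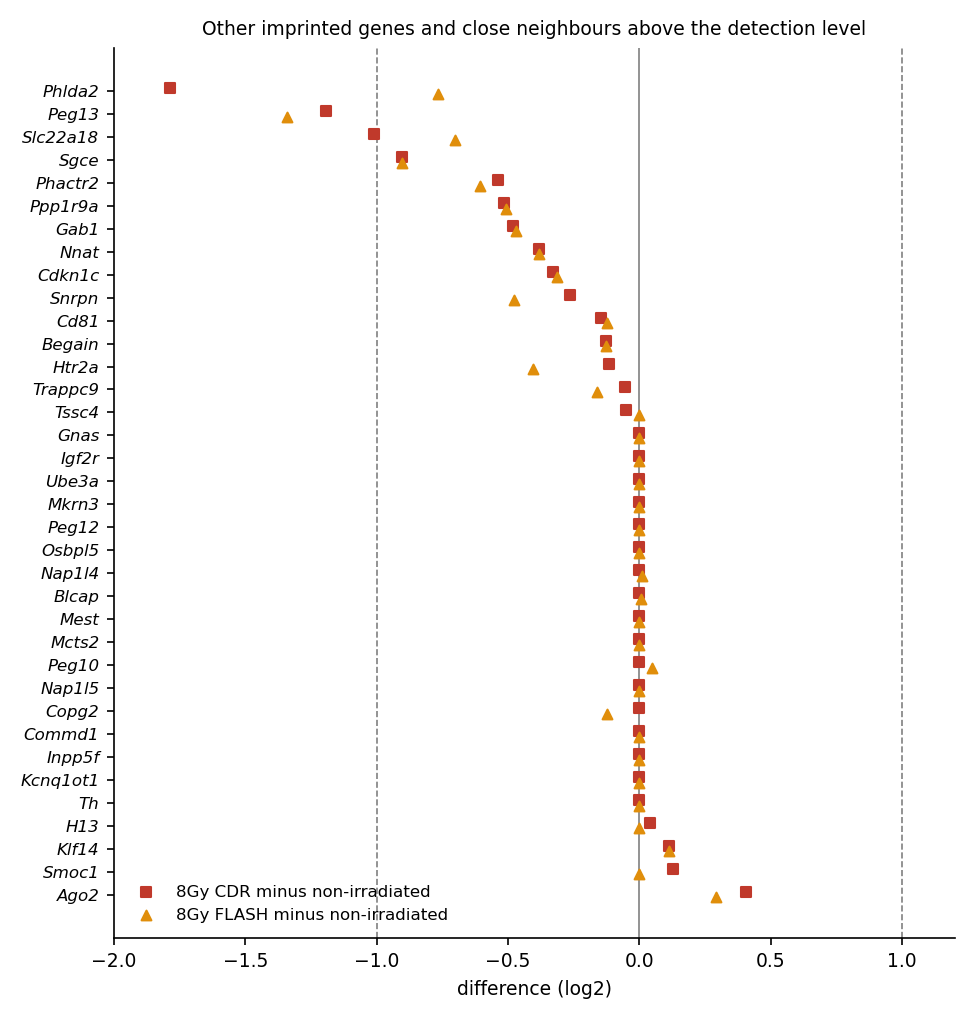
Difference in deposited log2 level from the non-irradiated array (horizontal axis) for other imprinted genes and close neighbours above the detection level, squares for 8Gy CDR and triangles for 8Gy FLASH, with dashed lines at 2-fold. Phlda2, Peg13 and Slc22a18 pass 2-fold on the 8Gy CDR array and Peg13 on the 8Gy FLASH array; the 8Gy CDR value of Phlda2 is under the detection level.

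The insulin and IGF pathway, on which Igf2 and Grb10 act, held 20 detected genes of 28 measured, and none differed by 2-fold in any comparison. Igf1r, the IGF1 receptor through which Igf2 also signals, read 7.34 on both irradiated arrays and 7.45 on the non-irradiated array. Igf2r, the imprinted receptor that clears Igf2, held 4.77 and Insr, the insulin receptor, 6.76 on all 3 arrays. Irs2, a docking protein of both receptors, read 6.10 on both irradiated arrays and 6.64 on the non-irradiated array. Foxo3, a transcription factor held in check by this pathway, was at -0.39 for 8Gy CDR and -0.35 for 8Gy FLASH minus non-irradiated. Igfbp7, an IGF-binding protein family member, read 6.55 on the 8Gy CDR array, 7.21 on the 8Gy FLASH array and 6.65 on the non-irradiated array.

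Of 16 genes listed under imprint maintenance, 14 were detected between the 8Gy CDR and non-irradiated arrays and 13 between the 8Gy FLASH and non-irradiated arrays. The list also holds genes that do not maintain imprints, such as Tet2. None of the detected genes in this list differed by 2-fold, and the medians were 0.07 and 0.06. Hells, a chromatin remodeller of DNA methylation, was at 0.34 for 8Gy CDR and 0.46 for 8Gy FLASH. Tet2, which oxidises methylated cytosine, was at 0.47 and 0.32 in the same order of comparisons.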

How the data were processed

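The authors deposited 1 processed value per probe set and array, taken here as log2 from the range of values. The submitters' processing notes list Partek without a version. The sources used here do not state the background correction, summarisation, normalisation or genome build. Symbols of 23185 probe sets came from the platform's probe table, and all equalled those of RefSeq (GRCm38.p6), which also gave gene order and sequences. Values were used as deposited. A gene was detected in a comparison when the brighter array read above its detection level, and where the dimmer array lay under its own level the fold is a lower bound against it. Calls used a 2-fold difference of deposited values, with no test. The calling code was run on simulated arrays with larger changes planted in bright genes only. That run does not check calls at 2-fold or near the detection level. The members, lists and alternatives were chosen with earlier results of these data known. The text names all members, up to 3 genes of the largest difference per list and comparison, and a fixed few, of which Cdkn1c, Igf1r, Igf2r, Insr and Dio3 are given. Mir673, Mir494 and Mir483 and the other microRNAs were chosen after their values were seen. Genes most like a member were to be named only for members past 2-fold, so there were none. Alternatives were quantile normalisation and cyclic loess (limma 3.58.1, R 4.3.3), median centring, an offset of 32 before the log, other filters and fold thresholds, and dim values raised to the level. Calculations used Python 3.11.15, numpy 2.4.6 and pandas 2.3.3, and plots matplotlib 3.10.9.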

Additional observations from a re-analysis of the deposited data

Results flagged for a closer look

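Grb10 was flagged because the irradiated arrays lay on opposite sides of the non-irradiated one, at 0.28 for 8Gy FLASH and -0.11 for 8Gy CDR on the log2 scale. The 8Gy CDR side is small, a size that 44.4% of detected genes matched or passed. Igfbp7 had the same order of arrays, and the share of all genes with that order was not counted. The difference in Grb10 between the irradiated arrays was 0.40 (8Gy FLASH minus 8Gy CDR), and it was not tested, since each group had 1 array.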

How the results depend on the processing

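The count of members at least 2-fold higher or lower was 0 in all 3 comparisons under every scaling, offset, filter and fold threshold tried, 1.5-fold and 3-fold included. The 3-fold threshold, the offset and the stricter filter could not have raised a count of 0, so they are no check on it. With members kept only where their mean level passed the 99th percentile of the unexpressed genes, Grb10 alone was left. The median difference then equalled its value, 0.28 for 8Gy FLASH minus non-irradiated and 0.40 for 8Gy FLASH minus 8Gy CDR. The number of members above the detection level, 3 at the 95th percentile, was 7 at the 90th and 1 at the 99th, alternatives chosen after seeing the data. The shares of all named genes were 58.3%, 66.7% and 44.0% in the same order. Across scalings, the offset and raised dim values, Grb10 ranged from 0.32 to 0.40 for 8Gy FLASH minus 8Gy CDR, from 0.23 to 0.31 for 8Gy FLASH minus non-irradiated and from -0.12 to -0.06 for 8Gy CDR minus non-irradiated. Igf2 ranged from -0.46 to -0.17 for 8Gy FLASH minus non-irradiated, the smallest size being with the offset of 32. Median centring moved no member's difference by more than 0.06, but it gives a sign to exact ties. No leave-one-out value could be had with 1 array per group. No paired analysis was possible because each group had 1 array. Signals near the level of unexpressed genes limit what the 7 undetected members can show.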
